A study of Mus musculus with 31 samples.

Results

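The sites described here are 2267 regions of the mouse autosomes where chromatin immunoprecipitation followed by sequencing (ChIP-seq) gave wide NIPBL peaks together with Rad21 peaks in splenic B cells. They were taken from the peak list of unstimulated splenic NIPBL replicate 1, called the first list here. A peak of that list was kept when it was 1000 bp or wider, overlapped a peak of 500 bp or more in each of the 5 other splenic NIPBL lists, and overlapped a peak of 200 bp or more in each of the 6 splenic Rad21 lists. They are 20.78% of the 10910 first-list peaks of that width on the autosomes, 28.95% of the 7831 that met the NIPBL part of the rule, and 0.193% of all 1174627 autosomal peaks of the list. The width and presence of peaks in the 12 splenic lists chose the sites, so every splenic value below is a description without a test. The libraries of the cell lines took no part in the choice and carry the tests.

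The study, by its title and design text, asked what role loop extrusion by cohesin plays in class switch recombination at the immunoglobulin heavy chain locus (IgH). All cells are labelled as AID-deficient and of strain C57BL/6, so the unstimulated controls lack AID as well. AID is the deaminase that starts class switching. NIPBL was mapped in mature B cells of the spleen, 3 libraries from unstimulated cells and 3 from cells given IL-4 with anti-CD40 for 48 h. The mouse lymphoma line CH12F3, also of the B lineage, gave 2 unstimulated NIPBL libraries and 2 from cells kept for 24 h with TGF-β and IL-4 plus anti-CD40. Rad21 was mapped under the same conditions in spleen (3 unstimulated libraries, 3 stimulated) and CH12F3 (3 unstimulated, 4 stimulated), and in 3 libraries of a line titled i3CBEs after the 24 h stimulation. The CH12F3 titles read CH12F3NCdel, and neither name is expanded in the labels. Both lines have CH12F3 lymphoma cells as their source name, so they stand for cultured tumour cells and not for primary cells.

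Cohesin is a ring-shaped protein complex that holds DNA and extrudes it into loops. Rad21 is the subunit that closes the ring, and NIPBL is the factor that loads the ring onto chromatin and drives its movement. In mammalian cells cohesin is known to build up where the DNA-binding protein CTCF stops loop extrusion, whereas NIPBL is known to be enriched at active promoters and enhancers. In B cells, loops that end at IgH bring switch regions together for recombination.

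The lists give, for each peak, the fold enrichment that the authors' peak caller computed and a -log10 p-value, which rank peaks within a list and are not compared between lists. NIPBL lists held 890499 to 1332862 peaks, splenic Rad21 lists 149409 to 1236385, and CH12F3 and i3CBEs Rad21 lists 42659 to 271662. Because of these lengths, a strong peak is defined here as one of the 20000 peaks with the highest -log10 p of its list, the same number in every list. Some lists stood apart. Stimulated splenic Rad21 replicate 1, with 149409 peaks, decided much of the rule: of 1769 sites with Rad21 in exactly 5 of the 6 splenic lists, 1407 lacked it there. Unstimulated splenic Rad21 replicate 3 was about as short, with 152152 peaks, and 155 of the 1769 sites lacked Rad21 in it. Without that list the rule gave 3674 sites, and without any other splenic Rad21 list 2277 to 2428. No control is named in any splenic NIPBL list, the first list included, nor in either CH12F3 NIPBL list of replicate 1. All Rad21 lists and both CH12F3 NIPBL lists of replicate 2 name a control. Splenic NIPBL and Rad21 lists thus differ in this as well as in the antibody. Each group of Rad21 lists names a control of its own, so a difference between groups and one between controls cannot be told apart.

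The sites covered 4.292 Mb in all. Their median width was 1576 bp (quartiles 1268 and 2163 bp), 198 were 3000 bp or wider and 33 were 5000 bp or wider. At the threshold, the narrowest members were chr9:86360373-86361372, chr11:98650114-98651113 and chr17:24615341-24616340, each 1000 bp wide with a first-list fold enrichment of 14.3, 12.1 and 18.1. Just outside lay chr1:173847156-173848154, chr5:15004653-15005651 and chr11:96882864-96883862, each 999 bp wide, at 7.03, 7.42 and 15.5. Coordinates are in mm9, counted from 1. No annotation of that build was used, so sites are named by position and not by gene.

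Sites were unevenly spread. Chromosome 11 carried 254 of them, or 2.085 per Mb up to its last peak, followed by chromosome 17 with 1.564 per Mb and chromosome 19 with 1.5 per Mb. Chromosome 18 had the fewest, 48, at 0.529 per Mb. The sites met by the NIPBL part of the rule ranged from 6.221 per Mb on chromosome 11 to 1.949 per Mb on chromosome 14. The share of them that were members ran from 21.148% on chromosome 15 to 33.559% on chromosome 1, which had only 0.756 members per Mb. It was 33.509% on chromosome 11 and 26.087% on chromosome 18. Neighbouring members lay a median of 205.2 kb apart. With gaps of up to 10 kb joined, 451 members (19.89%) fell into 180 runs of 2 or more.

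The largest runs held many members close together. These were chr8:19917056-19991727 with 13 members, chr11:3022692-3100053 with 10, chr6:47687161-47728781 with 10, chr6:47598956-47636983 with 9 and chr1:87481283-87508603 with 8; they were picked for their size after it was seen. Some stretches had very high fold enrichment in every library with either antibody. The 1116 bp site chr2:98506388-98507503 ranged from 11755 to 49867 over the 26 lists, and the widest site, chr9:2999990-3038326 with 38337 bp, from 216 to 896. No list of artefact-prone regions was applied. Whether such a stretch reflects mapping or binding was not tested, and the share of sites with line Rad21 is given with and without them. With chr8:19698451-20033642 and chr11:3004723-3192378, where members crowd together, these stretches hold 48 members.

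NIPBL peaks were centred on the sites, and Rad21 peaks were not. The centre is that of a NIPBL peak, so NIPBL had a head start in spleen, but the CH12F3 libraries were not used to place it. In CH12F3 the strongest NIPBL peak of a site had its midpoint a median of 162.5 and 194 bp from the centre in the unstimulated replicates and 197 and 205.5 bp in the stimulated ones. The strongest Rad21 peak lay 458.5, 449 and 446 bp away in unstimulated CH12F3, 464, 461.5, 553 and 475 bp in stimulated CH12F3, and 444.5, 447 and 456.5 bp in i3CBEs. All Rad21 libraries lay farther out than all NIPBL libraries. Within CH12F3 the mean of the library medians was 472 ± 36.8 bp for Rad21 (SD, n = 7) and 190 ± 18.8 bp for NIPBL (SD, n = 4). These distances are a description. The sites are NIPBL peaks, and CH12F3 NIPBL peaks there had a median width of 1103.5 to 1596 bp by library, against 262 to 563 bp for CH12F3 Rad21. A NIPBL peak thus has less room to lie off the centre. The distance of a narrow peak placed anywhere in a site was not computed, so these values do not show that Rad21 keeps away from the centre.

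Coverage was highest at the centre for CH12F3 NIPBL. For unstimulated CH12F3 Rad21 it differed little between the centre and 500 to 600 bp. Over all deposited peaks, unstimulated CH12F3 NIPBL covered 89.5 ± 6.29% of the sites within 100 bp of the centre, 73.5 ± 10.7% at 500 to 600 bp, 38.5 ± 9.24% at 1000 to 1100 bp and 25.2 ± 7.36% near 5 kb (SD, n = 2). Unstimulated CH12F3 Rad21 covered 33.4 ± 7.02%, 34.9 ± 5.69%, 21.1 ± 4.79% and 7.78 ± 1.63% at the same distances (SD, n = 3). The highest NIPBL coverage fell within 100 bp of the centre in all 4 CH12F3 libraries. Rad21 coverage peaked between 250 and 550 bp away in all 10 CH12F3 and i3CBEs libraries and between 250 and 450 bp away in all 6 splenic ones. The ratio of coverage at 500 to 600 bp to that at the centre was 0.775 to 0.862 for NIPBL and 0.986 to 1.296 for Rad21 in the lines, so those ranges did not overlap. In spleen the ratios were 0.762 to 0.906 for NIPBL and 0.869 to 1.115 for Rad21, and they did overlap.

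**Figure D1:**
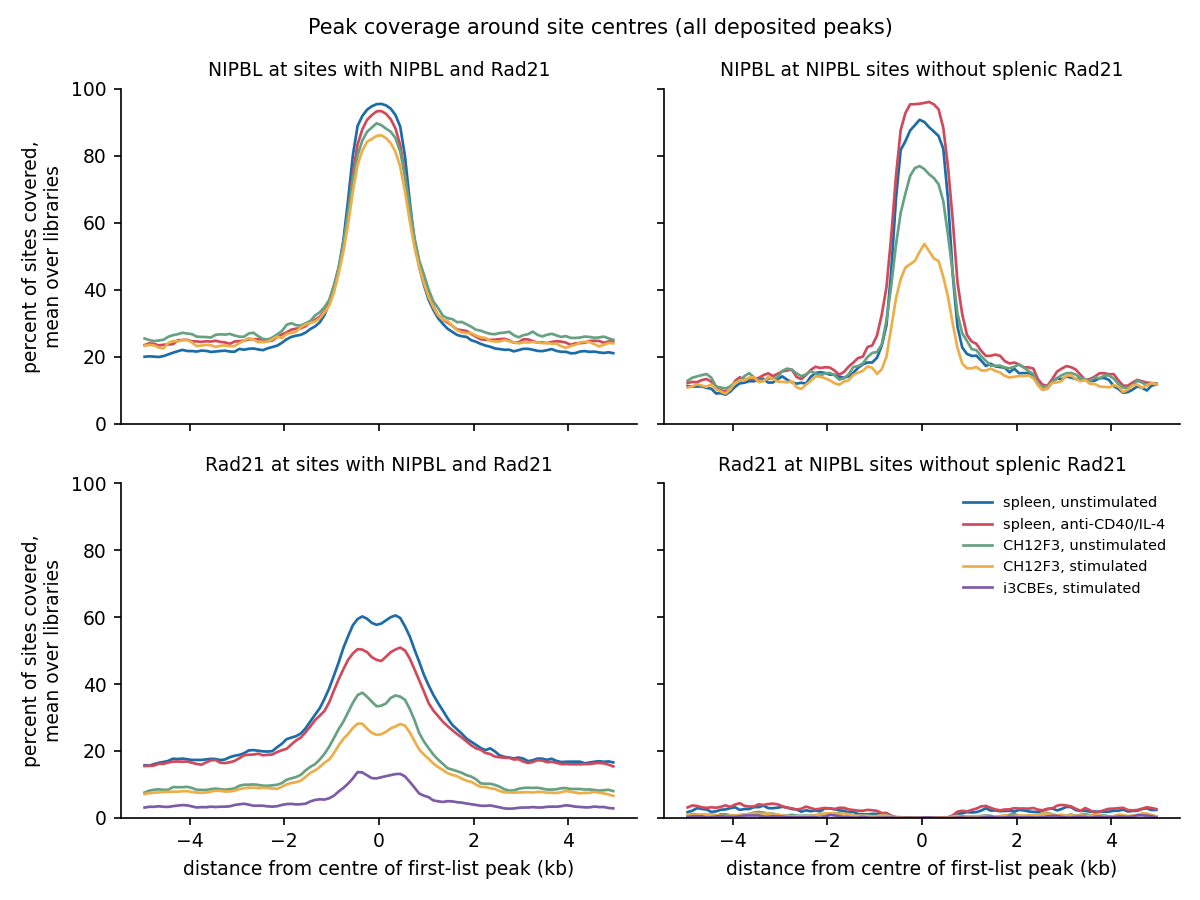
Percent of sites covered by any deposited peak (y axis) against distance from the centre of the first-list peak in kb (x axis), as the mean over the libraries of each group, for the sites with NIPBL and Rad21 (left) and for the 329 NIPBL sites without splenic Rad21 (right). NIPBL forms a single maximum at the centre, whereas the highest Rad21 coverage lies 250 bp or more from it in all 16 Rad21 libraries. The dip between is shallow.

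To ask whether the sites also carry Rad21 outside spleen, they were compared with 329 first-list peaks that met the NIPBL part of the rule and had no Rad21 peak of any width in any splenic list. In unstimulated CH12F3, 28.7%, 31.8% and 31.1% of the 2267 sites held a strong Rad21 peak. The stimulated CH12F3 libraries gave 29.3%, 31.7%, 23.7% and 28.5%, and those of i3CBEs 29.3%, 30.7% and 31.5%. None of the 329 comparison sites held one in any of the 10 libraries, which allows a share of up to 0.912% per library, for counting error only. The mean over members was 29.6 ± 2.43% (SD, n = 10). With the comparison sites at 0 in every library, an exact two-sided sign-flip permutation test returns its smallest p, 0.00195 (0.00684 adjusted over 7 tests), for any share above 0, so it says nothing of the size. The comparison sites were also weaker NIPBL sites, with a median first-list percentile of 59.1 against 99.5, and the part of that in the difference was not tested. The size depended on what was counted: the mean was 13.1% with the 10000 strongest peaks, 5.06% where strong peaks had to cover 50% of the site, and 16.0% where all deposited peaks had to. Without stimulated splenic Rad21 replicate 1 in the rule the mean fell to 19.2%, and without the 48 members in the stretches named above it was 29.4%.

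The share rose with the number of splenic Rad21 lists that had a peak. Among all 7831 NIPBL sites, grouped by the 0 to 6 splenic lists with a Rad21 peak of 200 bp or more, the mean share with a strong Rad21 peak in the lines was 0, 0.315, 0.379, 0.635, 0.942, 3.03 and 29.6%. The step from 5 to 6 lists was 26.6 ± 2.16 percentage points (SD, n = 10) and positive in 10 of 10 libraries, given as a description because it was picked out after the values were seen. Most of the sites with 5 lists lack Rad21 in the list of stimulated splenic replicate 1, so the step largely separates sites by that list. With any deposited peak counted, the mean shares ran from 3.95% at 0 lists through 52.5% at 5 to 80.2% at 6.

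NIPBL in CH12F3 followed splenic Rad21 less sharply. The mean share of sites with a strong CH12F3 NIPBL peak was 5.84% at 0 lists, 44.8% at 5 and 47.1% at 6. At the 2267 sites it was 79.4% and 32.3% in the unstimulated libraries and 44.4% and 32.2% in the stimulated ones. Against the 329 sites without splenic Rad21 the means were 47.1 ± 22.3% and 1.22 ± 1.63% (SD, n = 4), higher in 4 of 4 libraries, where 4 libraries do not allow the exact sign-flip permutation test to pass 0.05 (adjusted p = 0.219, its smallest possible value). NIPBL strength moved with this grouping mainly from 0 to 2 lists. The median first-list percentile was 76.2, 97.0, 99.0, 99.3, 99.5, 99.6 and 99.5 at 0 to 6 splenic Rad21 lists. The part of NIPBL strength in the CH12F3 shares was not tested. Nearly every site had some CH12F3 NIPBL peak, 99.9% of members and 97.8% of comparison sites on average.

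**Figure D2:**
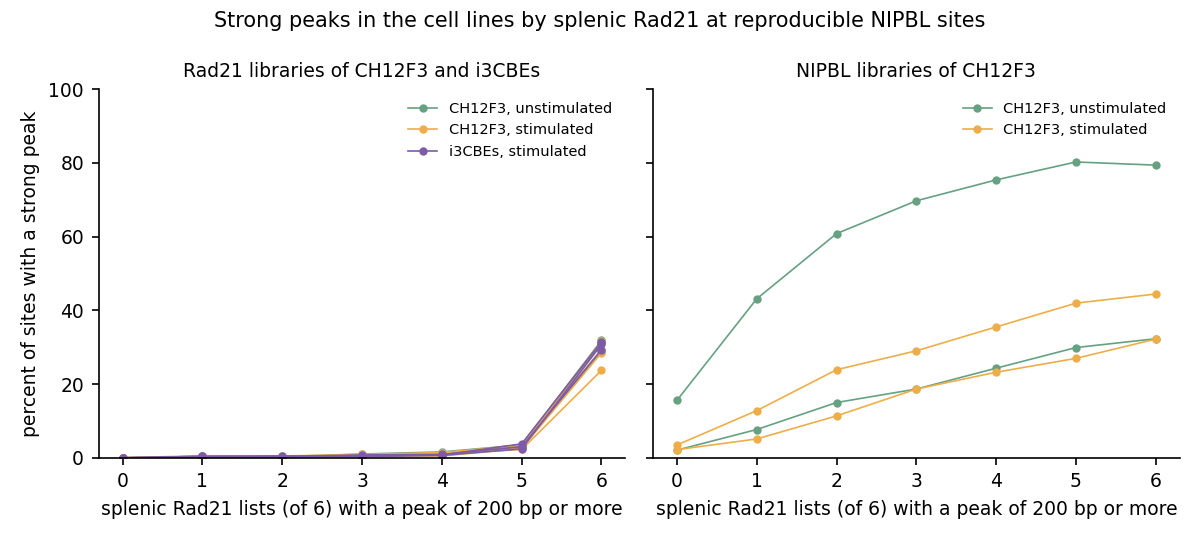
Percent of reproducible NIPBL sites with a strong peak (y axis) in each CH12F3 and i3CBEs library against the number of splenic Rad21 lists with a peak of 200 bp or more (x axis), 1 line per library, Rad21 on the left and NIPBL on the right. Rad21 stays below 4% up to 5 lists and lies between 23.7% and 31.8% at 6, whereas NIPBL rises on average over the whole range and differs more between libraries.

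The sites fell along a range from strong to weak Rad21, with a strong NIPBL peak at most of them. In these same splenic lists the rule asked for wider NIPBL peaks (1000 and 500 bp) than Rad21 peaks (200 bp). How far the difference between the antibodies below follows from that was not tested. In spleen, 1454 sites (64.138%) had a strong NIPBL peak in all 6 lists. For Rad21, 442 sites (19.497%) had a strong peak in all 6 splenic lists and 720 (31.76%) in none, so that a splenic Rad21 peak at these sites was often not a strong one. Sites with strong NIPBL in all 6 lists and strong Rad21 in none numbered 519 (22.894%), more than the 225 (9.925%) with strong peaks of both in all 12 lists. Of the 1000 strongest peaks of each splenic NIPBL list 21.8% to 27.4% lay on the sites, against 2.7% to 6.4% of the 1000 strongest of each splenic Rad21 list.

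Splenic Rad21 strength carried over to the lines, which took no part in that split. Of the 442 sites with strong splenic Rad21 throughout, 328 (74.208%) also had a strong Rad21 peak in all 10 CH12F3 and i3CBEs lists and 18 (4.072%) in none. Of the 720 sites without a strong splenic Rad21 peak, 1 (0.139%) had one in all 10 and 636 (88.333%) in none. By library, 81.0% to 92.1% of the first class and 1.53% to 4.31% of the second held a strong Rad21 peak, so the ranges were far apart. NIPBL ran slightly the other way. A strong CH12F3 NIPBL peak was present at 75.3%, 27.8%, 38.9% and 29.4% of the strong-Rad21 class (unstimulated 1 and 2, then stimulated 1 and 2) and at 83.1%, 34.3%, 48.1% and 35.0% of the class without strong Rad21, higher in the latter in 4 of 4 libraries. The median first-list NIPBL fold enrichment was 11.7 in the first class and 15.1 in the second.

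Ranked within each list by -log10 p and averaged over lists, splenic and CH12F3 NIPBL strength gave a Spearman rho of 0.73 over the 2267 sites, and splenic and line Rad21 strength 0.78. Between the antibodies rho was -0.16 in spleen and 0.14 in the lines, near 0 by comparison. For peak width, rho was 0.62 between splenic and CH12F3 NIPBL and 0.45 between splenic and line Rad21. Between NIPBL and Rad21 width it was 0.06 in spleen and 0.19 in the lines. These are descriptions across sites, which share libraries, lengths and base composition and are not independent replicates. The sites had passed the rule for both antibodies in spleen, so the values between antibodies hold within the chosen sites only. Among all 7831 NIPBL sites the median first-list NIPBL percentile was 76.2 at 0 splenic Rad21 lists, 97.0 at 1 and 99.0 at 2. It was 99.3 to 99.6 at 3 to 6 lists.

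**Figure D3:**
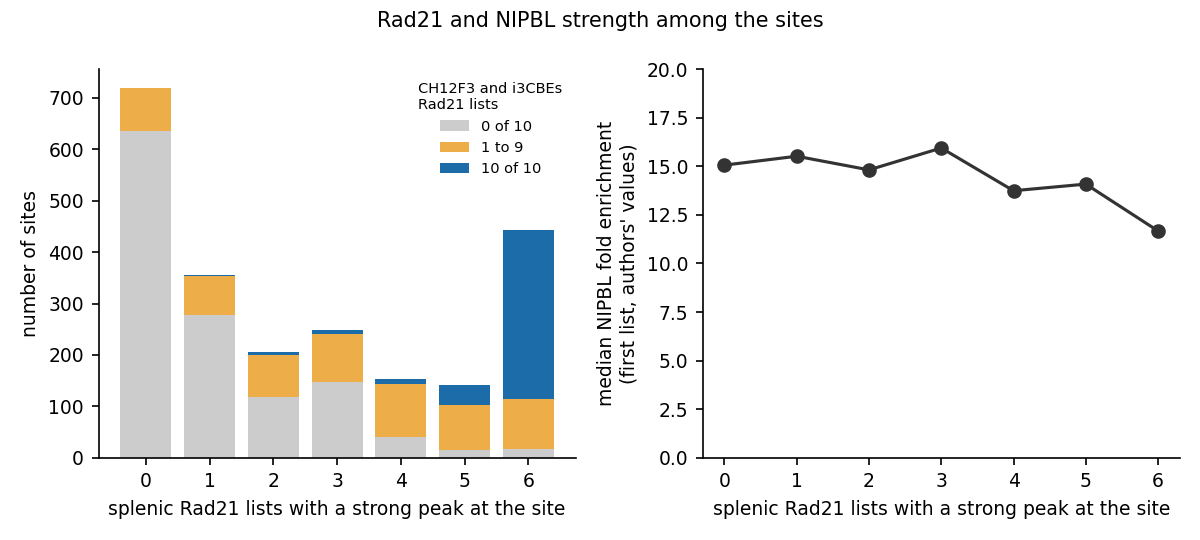
Left: number of sites (y axis) by the number of splenic Rad21 lists with a strong peak (x axis), split by how many of the 10 CH12F3 and i3CBEs Rad21 lists also have one. Right: median first-list NIPBL fold enrichment of the same classes; sites with strong Rad21 in 6 splenic lists mostly have it in all 10 line lists and have the lowest median NIPBL value, 11.7.

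Among the sites with the highest lowest percentile over the 12 splenic lists, several lay outside the stretches of high fold and had peaks of both proteins in all groups. At chr4:154623200-154624398 the Rad21 fold enrichment was 40.7, 40.0 and 23.7 in unstimulated spleen, 16.7, 25.8 and 17.6 in stimulated spleen, 39.4, 30.0 and 34.1 in unstimulated CH12F3, 47.1, 26.7, 23.7 and 28.4 in stimulated CH12F3, and 30.7, 28.5 and 29.3 in i3CBEs. Its NIPBL values were 7.34 to 13.1 over the 10 NIPBL lists. At chr11:93828843-93829973 NIPBL was at 39.7, 43.3 and 30.4 in unstimulated and 16.4, 14.4 and 19.8 in stimulated spleen, and Rad21 at 27.6, 28.3 and 19.7 in unstimulated and 12.4, 16.4 and 13.1 in stimulated spleen. Over all sites the mean of the library medians of fold was 13.4 without and 8.53 with stimulation for splenic NIPBL. For splenic Rad21 it was 6.48 and 4.66. A lower fold after stimulation at a named site, here or below, is thus not particular to it. These means do not measure an effect of stimulation, because fold is not compared between lists. For NIPBL, the rule also asked 1000 bp of the first list, an unstimulated one, and 500 bp of the others. The sites chr17:57136309-57138031, chr1:193915723-193917210, chr10:41238341-41240044 and chr13:114406409-114409057 had peaks of both in all 26 lists, with fold enrichment from 5.90 to 41.1. The remaining ones of the 10 were chr2:98506388-98507503, chr9:2999990-3038326, chr8:19783730-19785507 and chr12:114459570-114461732.

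Of the 5 widest, 4 lay in the stretches of chromosomes 9 and 11: the 38337 bp site on chromosome 9 and chr11:3080655-3097255, chr11:3026742-3038052 and chr11:3059387-3069208. The exception, chr18:60965042-60978051 with 13010 bp, had NIPBL at a fold of 14.2, 15.4 and 11.6 in unstimulated and 7.67, 8.54 and 11.0 in stimulated spleen. Rad21 there was at 6.19, 6.58 and 5.36 and at 3.85, 4.22 and 4.80 in the same groups, and at 3.70 to 5.01 over the 10 line lists.

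Many sites kept a Rad21 peak of some kind in every line library. With all deposited peaks, 1098 sites (48.434%) had one in all 10 CH12F3 and i3CBEs lists and 71 (3.132%) in none. The share was 89.5%, 89.8% and 94.6% in unstimulated CH12F3, 90.1%, 88.0%, 82.8% and 78.6% in stimulated CH12F3 and 67.8%, 61.2% and 59.5% in i3CBEs. The i3CBEs lists held 97738, 53237 and 42659 peaks, and the shortest CH12F3 Rad21 list, stimulated replicate 1, held 95464. The part of list length in these shares was not tested. The strong-peak shares above overlapped between the lines. The 5 widest of the 71 sites without line Rad21 were chr8:11003356-11010198, chr19:61300572-61305047, chr4:55542959-55547106, chr4:132650907-132653907 and chr18:7320798-7323387. The first of them, 6843 bp wide, had splenic NIPBL at 17.3, 16.0 and 14.7 without and 7.46, 5.78 and 7.24 with stimulation, and splenic Rad21 at 7.85, 4.59 and 4.42 without and 6.39, 11.5 and 6.87 with it. In CH12F3 its NIPBL peaks were only 51 bp wide, at a fold of 4.51 to 7.97.

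Near the study's locus, 6 sites lay in a window of chromosome 12 at the constant-region end of IgH, reaching from 114312013 to 114664196. The window and its sites were chosen after values were seen. In order they are chr12:114312013-114313946, chr12:114384115-114385547, chr12:114393142-114395123, chr12:114425744-114427505, chr12:114459570-114461732 and chr12:114658783-114664196. All carried NIPBL in all 10 NIPBL lists.

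The fifth, of 2163 bp, had the highest Rad21 fold of the window in every one of the 16 lists. Its Rad21 fold enrichment was 32.2, 25.1 and 15.9 in unstimulated spleen, 11.8, 27.1 and 18.0 in stimulated spleen, 18.8, 18.5 and 22.9 in unstimulated CH12F3, 31.9, 17.3, 11.8 and 17.9 in stimulated CH12F3, and 11.2, 11.8 and 11.4 in i3CBEs. The first 3 sites also held Rad21 in all 16 Rad21 lists, at folds of 4.82 to 21.9.

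The fourth site, chr12:114425744-114427505, had Rad21 in spleen and none in the lines. Its splenic Rad21 fold was 11.7, 11.8 and 9.71 without and 6.06, 12.7 and 9.84 with stimulation, a strong peak in all 6 lists. None of the 10 CH12F3 and i3CBEs lists held a Rad21 peak of any width there. NIPBL was present in CH12F3, at 4.46 and 4.77 without and 5.90 and 3.79 with stimulation, none of them a strong peak. It was 1 of the 71 sites of this kind. The labels do not say what sets CH12F3NCdel and i3CBEs apart from the parent line, nor whether this position is touched. For i3CBEs, which has no NIPBL library here, a lack of Rad21 and a lack of sequence at the site cannot be told apart.

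The sixth site, chr12:114658783-114664196, was the widest of the window at 5414 bp and was rich in NIPBL, at 13.9, 18.9 and 13.4 in unstimulated and 12.8, 9.53 and 18.2 in stimulated spleen. It had no strong Rad21 peak in any list. The splenic Rad21 fold was 6.55, 5.55 and 3.48 without and 3.41, 4.0 and 4.49 with stimulation. Peaks of 51 to 161 bp were present in 2 of 3 unstimulated CH12F3, 3 of 4 stimulated CH12F3 and 1 of 3 i3CBEs Rad21 lists.

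**Figure D4:**
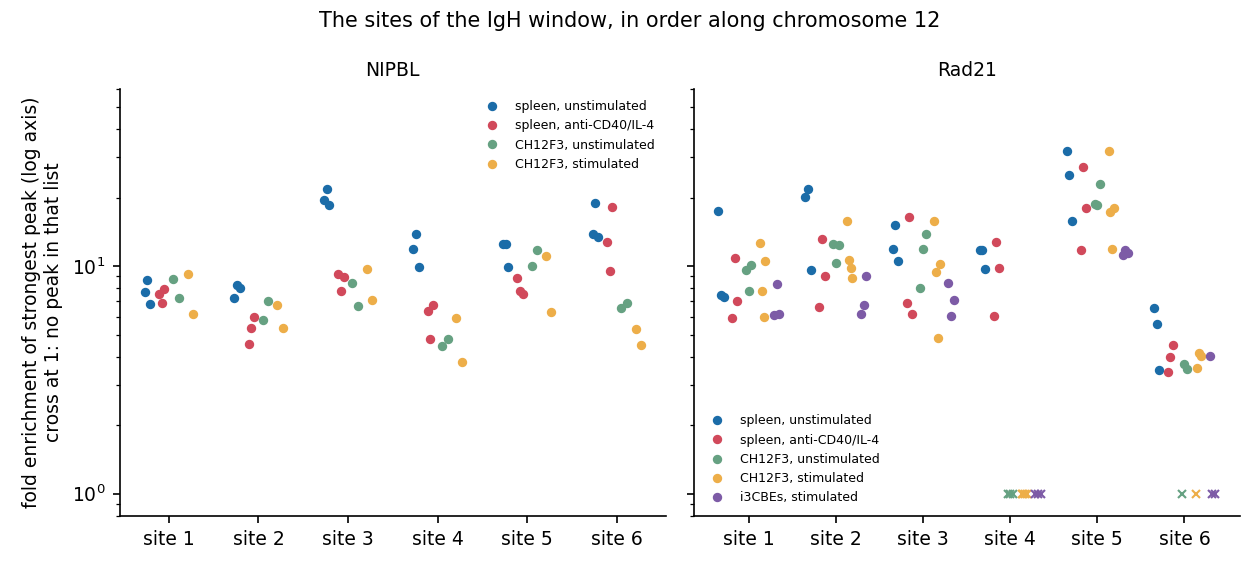
Fold enrichment of the strongest peak at the sites of the IgH window (log y axis), 1 point per library and colours for groups, NIPBL on the left and Rad21 on the right; a cross at 1 marks a list without a peak. The fourth site has Rad21 in all 6 splenic lists and in none of the lines, and the sixth has NIPBL in all lists and Rad21 in 12 of 16.

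Stimulation of splenic B cells is given as a description, since those libraries chose the sites. The splenic Rad21 lists also name different controls with and without stimulation, so stimulation and control cannot be told apart there. A strong Rad21 peak was present at 46.4%, 43.7% and 58.8% of the sites in unstimulated and at 35.8%, 31.6% and 25.8% in stimulated spleen, so the groups did not overlap. For NIPBL the shares were 88.5%, 79.3% and 79.8% against 80.7%, 81.9% and 81.9%, and they did overlap. The percent of each 10 kb bin covered by strong peaks was also fitted over the whole genome with limma, adjusted p under 0.05. For Rad21, 137 of 1402 bins that hold a member and were tested had lower coverage after stimulation, where 2.69% of all tested bins were called, and 2 had higher coverage, where 0.128% were. The 137 became 0 when any of the 3 stimulated libraries was left out, and 90, 130 and 238 without unstimulated replicates 1, 2 and 3. For NIPBL, 21 of 2042 member bins were called higher and 34 lower, where 1.74% and 1.24% of all bins were. Nothing is read from these counts, since the same libraries chose the members, and the calls serve only to pick the bins described next.

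The bins below were picked for a call and for groups that do not overlap, so neither is a result, and their coverage is of strong peaks unless stated. The bin chr10:96080001-96090000, which holds the site chr10:96079006-96081464, was covered by strong Rad21 peaks at 93.5%, 96.0% and 88.9% without stimulation and 7.12%, 0% and 24.6% with it. Weaker Rad21 peaks remained: all deposited peaks covered 47.7% and 66.4% of the site in stimulated replicates 1 and 3 and the whole site in replicate 2, and the difference in the bin shrank from -82.2 to -27.6 points with all peaks, with no call at 40000 peaks (-49.4 points). The bin chr11:87560001-87570000 went from 68.4%, 70.8% and 46.4% to 0%, 0% and 4.10%. Its sites, chr11:87561608-87563908 and chr11:87566772-87571040, kept stimulated Rad21 peaks in all 3 libraries, of 597 to 8164 bp, and the difference shrank from -60.5 to -24.8 points with 40000 peaks and -11.8 with all, without a call in either. For NIPBL, chr7:52090001-52100000 was covered at 30.7%, 26.2% and 21.0% without and 88.3%, 93.7% and 99.3% with stimulation, where the site chr7:52094042-52097112 widened from peaks of 3071, 2615 and 2098 bp to peaks of 7248, 10249 and 11062 bp. In the other direction, chr8:121940001-121950000 fell from 51.3%, 46.0% and 49.8% to 3.55%, 8.24% and 11.8%. At its site, chr8:121944868-121950467, the strongest NIPBL peak was 5600, 3221 and 5170 bp wide without and 355, 824 and 505 bp with stimulation. All NIPBL peaks together still covered 44.3%, 78.3% and 76.6% of that site after stimulation, and the difference in the bin shrank from -41.2 to -8.15 points with all peaks, without a call.

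**Figure D5:**
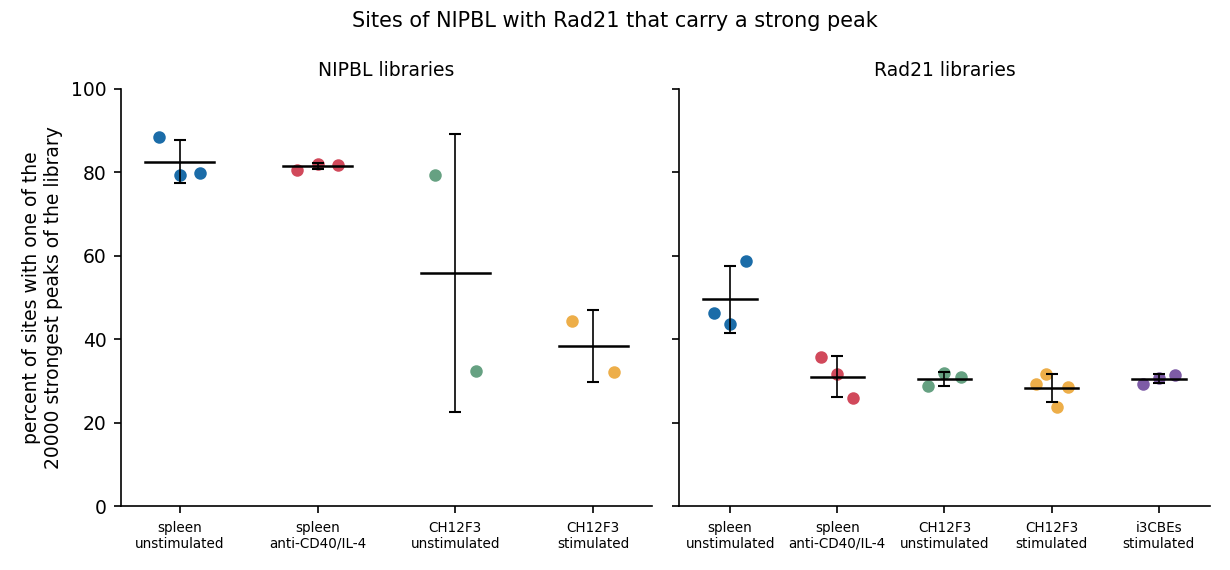
Percent of the 2267 sites that hold one of the 20000 strongest peaks of a library (y axis), 1 point per library, with the mean (line) and SD (bars) of each group, NIPBL on the left and Rad21 on the right. Unstimulated spleen has the highest Rad21 shares, 43.7% to 58.8%, while the CH12F3 groups and i3CBEs lie between 23.7% and 31.8%.

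In CH12F3, stimulation left the share of sites with strong Rad21 within the spread of the libraries. The mean was 28.3 ± 3.35% with (SD, n = 4) and 30.5 ± 1.65% without stimulation (SD, n = 3), and the exact two-sided permutation test gave p = 0.4 (0.533 adjusted), where 0.0571 is the smallest possible. By replicate number, those numbered 1 went from 28.7% to 29.3%, those numbered 2 from 31.8% to 31.7%, and those numbered 3 from 31.1% to 23.7%. Over bins, limma called 1 of 1064 member bins lower and 0 higher, where 0.0262% and 0% of all bins were called. At an unadjusted p under 0.05, 107 were lower and 7 higher, which is 10.1% and 0.658% of them against 4.37% and 1.58% of all bins. The called bin was chr9:56770001-56780000, covered at 6.18%, 6.14% and 8.42% without stimulation and 0%, 0%, 0% and 1.92% with it (difference -6.43 points, SE 0.759, limma adjusted p = 0.0289). All 4 stimulated lists held a Rad21 peak at its site, chr9:56775188-56776712, and with all deposited peaks the difference was -1.27 points (adjusted p = 0.866). With the replicate number as a block, 0 bins were called in either direction. Leaving out 1 library gave 0 to 16 lower bins. Stimulated and unstimulated CH12F3 Rad21 lists name different controls, so stimulation and control cannot be told apart.

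For CH12F3 NIPBL the share was 38.3 ± 8.64% with and 55.8 ± 33.3% without stimulation (SD, n = 2 each), with p = 0.667 by the exact permutation test, where 0.333 is the smallest possible (0.667 adjusted). The difference rested on unstimulated replicate 1. Those numbered 1, whose lists name no control, went from 79.4% to 44.4%, and those numbered 2, with a control, stayed at 32.3% and 32.2%. Without unstimulated replicate 1 the difference turned to 6.02 points higher. In bins, limma called 0 of 1341 in either direction, where 0% of all bins were called, and at an unadjusted p under 0.05 there were 6 higher and 68 lower, where 4.11% and 6.2% of all bins were.

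Between i3CBEs and stimulated CH12F3, the share of sites with strong Rad21 was 30.5 ± 1.12% (SD, n = 3) and 28.3 ± 3.35% (SD, n = 4), with p = 0.457 by the exact permutation test (0.533 adjusted; smallest possible 0.0571). The sign depended on the peaks counted: with all deposited peaks i3CBEs was 22.0 points lower. Replicates 2 and 3 of i3CBEs had shorter lists than any stimulated CH12F3 library. Replicate 1 did not, with 97738 peaks against 95464 in stimulated CH12F3 replicate 1. The part of list length was not tested. Over bins, limma called 4 of 1064 member bins higher and 5 lower in i3CBEs, 0.376% and 0.47% of them, where 0.179% and 0.231% of all bins were called. Both counts are of a few bins. The i3CBEs lists name a control of their own, so a difference between the cells and one between controls cannot be told apart.

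The lower bins formed 2 groups on chromosome 1, apart from 1 bin of small coverage, chr1:80750001-80760000. The bin chr1:87490001-87500000 was covered by strong Rad21 peaks at 91.7%, 91.6%, 81.4% and 83.0% in stimulated CH12F3 and 0%, 0% and 22.5% in i3CBEs (difference -79.4 points, SE 5.61, limma adjusted p = 0.00052). Its sites chr1:87491506-87496222 and chr1:87496435-87498220 shared wide Rad21 peaks of 7249 to 11925 bp in stimulated CH12F3. In i3CBEs the strongest peaks were 1453, 316 and 342 bp wide at the first and 1835, 1760 and 1765 bp at the second. The neighbouring bin chr1:87500001-87510000 differed by -63.1 points (SE 6.28, adjusted p = 0.00759). The bins chr1:85260001-85270000 and chr1:85100001-85110000 differed by -71.7 points (SE 9.58) and -61.2 points (SE 8.18), each with an adjusted p of 0.0232. With the 10000 strongest peaks these shrank to -30.2 and -23.5 points (adjusted p = 0.363 and 0.447), and over all alternatives the calls were lost in 7 and 5 of 12. All 4 bins lie in or beside runs of clustered members. In chr1:87500001-87510000 the difference turned to 6.26 points higher with the 10000 strongest peaks.

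Higher bins in i3CBEs were covered only slightly. At chr6:47690001-47700000 coverage was 12.8%, 13.1% and 6.44% in i3CBEs and 0% in all 4 stimulated CH12F3 libraries (difference 10.8 points, SE 1.36, limma adjusted p = 0.021). All 4 CH12F3 libraries did hold weaker Rad21 peaks at its site chr6:47692568-47696505, at folds of 3.92 to 6.38, and with all deposited peaks the bin was 9.74 points lower in i3CBEs. The remaining 3 were chr17:13740001-13750000, chr5:15120001-15130000 and chr9:78320001-78330000, with differences of 8.91, 5.76 and 2.46 points. With all deposited peaks these were 6.21, 2.59 and -28.9 points, and over all alternatives the calls were lost in 7 and 6 of 11 for the former pair, and lost in 7 and reversed in 2 of 11 for chr9:78320001-78330000. At its site, chr9:78328186-78330192, all 4 stimulated CH12F3 lists held a Rad21 peak and 1 of 3 i3CBEs lists did.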

How the data were processed

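The data were peak lists from 26 ChIP-seq libraries, each library with its own list; 5 input samples were not analysed here. The submitters' processing notes name Bowtie2, MACS2 and mm9, without versions. Which control went with which list comes from the names of the peaks. For each peak the authors deposited a fold enrichment (a ratio), a -log10 p-value, a -log10 q-value and a score derived from the latter. These belong to a peak in its own list and only described or ranked peaks there. Those of all Rad21 lists and of CH12F3 NIPBL replicate 2 name one. Without read counts in the lists the depth is unknown.

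The members, lists and tests were chosen with earlier results of these data known. Groups and replicate numbers come from the sample titles. Splenic cells are named in 1 label field of the Rad21 samples from CH12F3 and i3CBEs, and titles and source names were followed instead. Nothing in the labels tells whether replicates came from different animals or cultures. The p-values therefore cover the spread between these samples alone, which may be technical.

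Sites and peaks were joined by an overlap of 1 or more bases, and of several overlapping peaks the one ranked highest by -log10 p was taken. Strong peaks are the 20000 highest by -log10 p on the main chromosomes (ties by fold, then position). The percent of each 10 kb bin covered by strong peaks was fitted in R 4.3.3 by limma 3.58.1, with a trended prior variance, over bins in which at least 2 fitted libraries had coverage, with Benjamini-Hochberg adjustment over all of them, under 0.05; CH12F3 and i3CBEs Rad21 shared a fit. Only bins that hold the midpoint of a member are printed. Shares were compared by two-sided exact permutation over libraries, adjusted over 7 tests. Functions were tested on simulated data. Tables, tests and plots used scipy 1.17.1, statsmodels 0.14.6, pandas 2.3.3, numpy 2.4.6 and matplotlib 3.10.9 under Python 3.11.15.

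Named regions are, by rule, the 10 with the highest lowest percentile over the 12 splenic lists, the 5 widest, 3 on either side of the 1000 bp limit, the 5 widest without line Rad21, and called bins whose groups do not overlap, ranked by difference. The rule allowed 10 bins per direction, and where none was called the 3 with the smallest p. To keep the text short, at most the first 5 per direction were examined, and none where no bin was called. Runs and the IgH window were named after values were seen. The rule's part on listed genes was not used, because no mm9 annotation was used, and no sequence is printed.

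In CH12F3 Rad21, deviations of same-numbered libraries from their group means correlated at 0.417, 0.642 and 0.371. Some differently numbered pairs correlated as highly (0.436 for stimulated 1 with unstimulated 3, 0.585 for stimulated 4 with unstimulated 2). The main fits and the permutation tests between groups did not pair libraries. The replicate number entered only as a block among the alternatives. Alternatives were other numbers of peaks, bin widths, filters, overlaps and rules, each library left out, and a replicate block.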

Additional observations from a re-analysis of the deposited data

Results flagged for a closer look

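On the X chromosome, outside the rule, 14 first-list peaks met the rest of it, which is 9.333% of the 150 X peaks that met its NIPBL part and 0.084 per Mb, against 28.949% and 0.917 per Mb on the autosomes. On the Y chromosome 15 of 15 did, within the first 2.903 Mb. In stimulated CH12F3 Rad21, replicate 3 lay apart from the other libraries in the median distance of the strongest peak from the site centre, at 553 bp against 464, 461.5 and 475 bp. In the bin chr9:56770001-56780000 stimulated CH12F3 Rad21 replicate 4 lay apart at 1.92% covered, the other 3 being at 0. With 3 libraries at 0, any coverage in the last is flagged, so nothing is read from this flag. All 16 checks of this kind were on stimulated CH12F3 Rad21, the only group with 4 libraries, and 2 found a library apart. Chance gives about 1 in 20 for a single check without such ties at 0. These checks share the same 4 libraries and are not independent.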

How the results depend on the processing

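Of the alternatives to the counts and shares, 136 kept direction and side of the threshold, 67 moved a count by more than 1.5 times and 4 reversed the direction. Of those to single bins, 140 kept the call, 147 lost it and 7 reversed it. The number of sites was 1266 with first-list peaks of 1500 bp or more, 4154 with Rad21 peaks of any width, 908 with Rad21 of 400 bp or more and 3674 without the list of stimulated splenic Rad21 replicate 1. Taking another splenic NIPBL list first gave 1750 to 2191 sites that overlapped 65.02% to 76.136% of the members. The share of members with line Rad21, less that of the comparison sites, was 29.4 to 30.3 points without any 1 library, but 79.4 with all deposited peaks, 13.1 with 10000 peaks, 5.06 with 50% of the site covered, 16.0 with 50% covered by all peaks and 19.2 without stimulated splenic Rad21 replicate 1 in the rule. The same difference for CH12F3 NIPBL was 35.9 to 50.6 without 1 library and 2.13 with all deposited peaks. For CH12F3 Rad21, stimulated less unstimulated was -3.34 to -0.676. For CH12F3 NIPBL it was -41.0 to 6.02, the last without unstimulated replicate 1. The i3CBEs share less that of stimulated CH12F3 was 0.662 to 3.32 without 1 library, but turned to -22.0 with all deposited peaks, -3.28 with 50% of the site covered and -12.4 with 50% covered by all peaks.

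Counts of called member bins are given as higher and lower. NIPBL in spleen (21 and 34) gave 61 and 79 with 10000 peaks, 33 and 17 with 40000, 44 and 13 with all peaks, and 12 to 64 and 26 to 43 without 1 library. Rad21 in spleen (2 and 137) gave 0 and 0 with 10000 peaks, 0 and 0 with 40000, 0 and 5 with all peaks, 0 and 0 with bins covered in 1 or more libraries, and 0 to 5 and 0 to 238 without 1 library. Rad21 in CH12F3 (0 and 1) gave 0 lower with 10000 or all peaks, and 0 to 2 and 0 to 16 without 1 library. For i3CBEs (4 and 5) the lower count was 2 with 10000 peaks, 11 with 5 kb bins and 9 with bins covered in 1 or more libraries, both were 0 and 10 with 40000 peaks and 0 and 16 with all peaks, and without 1 library they were 0 to 9 and 2 to 13. NIPBL in CH12F3 gave 0 throughout.

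With the replicate number as a block, NIPBL in spleen gave 0 and 0, Rad21 in spleen 4 and 172, Rad21 in CH12F3 0 and 0, NIPBL in CH12F3 0 and 0, and i3CBEs 1 and 2. In spleen and between the lines same-numbered libraries did not pair: their correlations lay between -0.118 and 0.103. In CH12F3 NIPBL they were 0.313, over 2 pairs only.

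Among single bins, chr4:133680001-133690000 (NIPBL in spleen) turned to -1.61 points with 10000 peaks and chr11:3070001-3080000 (Rad21 in spleen) to -1.54 with 40000 and with all peaks. In i3CBEs, chr1:87500001-87510000 turned to 6.26 with 10000 peaks, chr9:78320001-78330000 to -5.36 with 40000 and -28.9 with all, and chr6:47690001-47700000 to -9.74 with all. The cause of these changes was not tested. Lists without read counts limit all values to the presence, width and rank of peaks.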
